A study of Mus musculus with 12 samples.

Results

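Inflammatory cytokines and chemokines are represented here by 10 genes: the cytokines Il1b, Tnf, Osm and Il12b, the CXC chemokines Cxcl1, Cxcl2 and Cxcl5, and the CC chemokines Ccl2, Ccl3 and Ccl8. They were taken by name from the 991 features of the deposited files, including genes with very low values. The Control and DSS files list 9 of them, and Ccl8 is listed in the high-dose files alone. Mouse colon RNA was sequenced in 12 libraries, 3 per group. DSS mice drank 2.5% dextran sulfate sodium (DSS), which damages the epithelium of the colon and causes colitis, for 5 days and then water for 5 days, in 3 cycles, with plain water as the accompanying treatment. BXD_L and BXD_H mice went through that course while being given Banxia Xiexin Decoction, a Chinese herbal preparation, at 7.60 or 15.2 g/kg per day, and Control mice were given purified water. The labels give no strain, sex or age, and they do not say that each library came from its own mouse. The p-values below therefore describe variation between libraries that could be technical.

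Interleukin 1 beta (Il1b) and tumour necrosis factor (Tnf) are the classical early cytokines of injured mucosa: both act on epithelial, stromal and endothelial cells, where they switch on transcription through NF-kB. Chemokines are small secreted proteins that set up gradients for migrating leukocytes. The mouse chemokines Cxcl1, Cxcl2 and Cxcl5 bind the receptor Cxcr2 and draw neutrophils, Ccl2 draws Ccr2-bearing monocytes, and Ccr1 is a receptor of Ccl3. Oncostatin M (Osm) signals to stromal cells through Osmr, and Il12b encodes the p40 subunit shared by interleukins 12 and 23.

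Values are FPKM, the number of fragments divided by gene length and library size, so levels can be compared between genes. The spacing of the low values gave library totals of 12.4 to 19.2, in units of 1000000 fragments, for the BXD_H, DSS and Control libraries. At those totals all 57 values of the 10 genes lay within 0.25 fragments of a whole number, and the fragment numbers below come from them. Their 95% Poisson intervals cover counting error only. The Control and DSS files list 912 features, and 706 of these had every DSS library above every Control library. That is 77.4% of the list. A further 162 had every DSS library below every Control library. The limma fit below called 571 of 576 tested features (99.1%) in either direction. How the list was made is not stated, and it may have been selected on these same libraries. A rise of a listed gene is therefore not independent evidence. Adjusted p-values below cover this list alone and take no account of genes left out of it. In 2 libraries the descriptive text conflicts with the title: that of DSS replicate 3 names the low decoction dose, and that of Control replicate 3 names DSS. Both libraries were kept in the groups of their titles and treatment labels, and results without them are given below. The tissue label was checked with the colonocyte genes Car4 and Slc26a3, which stood at 35.9 to 369 FPKM in DSS and at 153 to 852 FPKM in Control.

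All 9 cytokine and chemokine genes listed for both groups had higher FPKM in every DSS library than in any Control library, as did 77.4% of all listed features. Of the 9, 5 passed the low-value filter (at least 1 FPKM in 3 or more libraries), and all 5 rose: Il1b, Tnf, Cxcl1, Cxcl5 and Ccl2. Among all 576 features tested, 79.2% rose, so this count does not set the 5 apart. Each of the 5 was above 1 FPKM in all 3 DSS libraries, and Tnf was the single one above 1 FPKM in any Control library, so passing the filter itself favoured genes high in DSS. Osm, Il12b, Cxcl2 and Ccl3 were below the filter. Without the filter 8 of the 9 rose, beside 77.6% of all 912 features. In fits chosen after seeing the data, 9 of 9 rose without the filter and DSS replicate 2 (74.7% of all features), and 8 of 9 without the filter, Control replicate 3 and DSS replicate 3 (57.6% of all features). With the median of the list subtracted from each library, every change was lower by 0.65: Cxcl1 (0.77) and Cxcl5 (1.91) passed and Il1b (1.74), Tnf (0.45) and Ccl2 (0.61) did not, in a fit that called 113 features higher and 118 lower in DSS, beside 456 and 115 without the subtraction. With groups taken from the descriptive texts Il1b (2.35) was the single one of the 5 to pass. That fit called 8 features in all, 4 of them higher in DSS, beside 571 with the groups of the titles. For a single gene the exact permutation test of 3 against 3 libraries gave p = 0.10 (two-sided) for each of the 9, the smallest value this design allows. In bulk tissue, more cells of a type and more RNA per cell cannot be told apart.

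**Figure D1:**
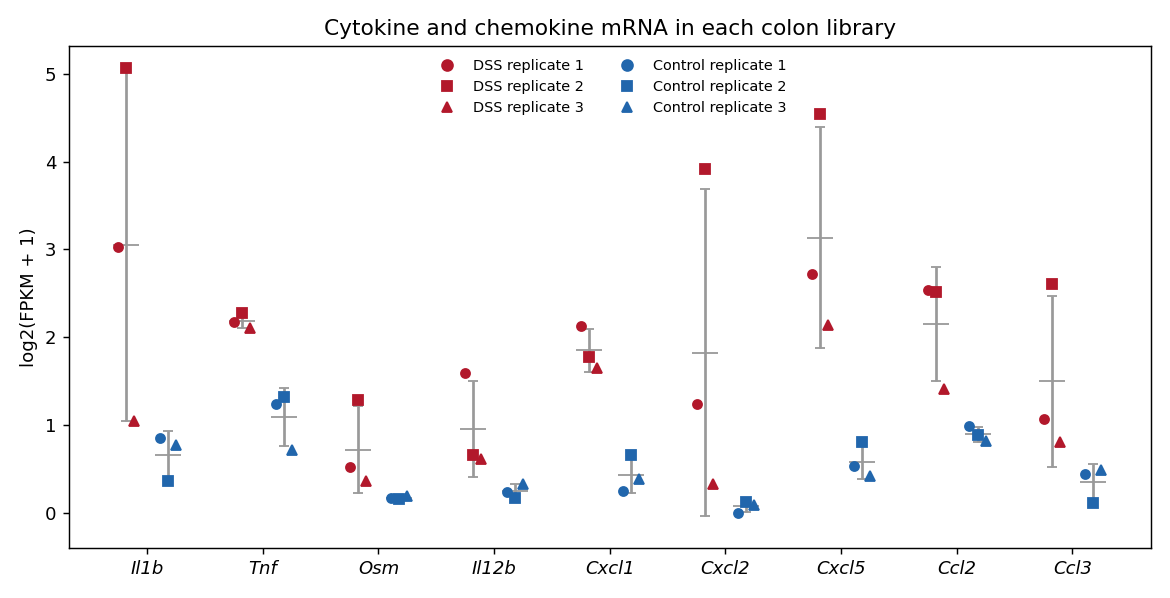
Level of each gene as log2(FPKM + 1) in the 3 DSS libraries (red) and the 3 Control libraries (blue), with a symbol per replicate and grey bars for the mean and SD. The DSS points lie above the Control points for all 9 genes, and the DSS spread is narrow for Tnf (3.31 to 3.85 FPKM) and wide for Il1b (1.07 to 32.48 FPKM).

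Il1b was the most abundant of the 9 genes in DSS by its mean. It stood at 7.14, 32.48 and 1.07 FPKM in DSS replicates 1 to 3, against 0.80, 0.28 and 0.71 FPKM in Control replicates 1 to 3. DSS replicate 2 was far above the rest, and DSS replicate 3 lay just above the highest Control library. The DSS values rest on 210, 1030 and 39 fragments and the Control values on 22, 9 and 22. For DSS replicate 3 the counting interval was 0.759 to 1.46 FPKM, and that of Control replicate 1 was 0.502 to 1.21 FPKM, so a difference between these 2 libraries was not detectable at this depth. The mean was 13.6 ± 16.7 FPKM in DSS and 0.597 ± 0.278 FPKM in Control (SD, n = 3 each), and the change on the log2(FPKM + 1) scale, which understates changes of low genes, was 2.39 (SE 0.81, limma adjusted p = 0.0185). Without DSS replicate 2 it was 1.38 (limma adjusted p = 0.0441), and without Control replicate 2 the call was lost (2.24, limma adjusted p = 0.0581). Nlrp3, which encodes the sensor of the inflammasome that matures the interleukin 1 beta protein, was the single listed gene of 11 in the inflammasome list. It stood at 0.69, 2.12 and 0.40 FPKM in DSS replicates 1 to 3 and at 0.12 to 0.36 FPKM in Control, below the filter, with the same order of the DSS libraries as Il1b.

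Tnf was the most even of the 9 genes across the DSS libraries, though not across the Control libraries. Its level was 3.52, 3.85 and 3.31 FPKM in the DSS libraries, against 1.36, 1.50 and 0.64 FPKM in the Control libraries. The DSS libraries differed by 1.16-fold at most, and the groups were well apart. Tnf rose by 1.10 on the log2(FPKM + 1) scale (SE 0.21, limma adjusted p = 0.00356), a 3.05-fold difference of the means. Without DSS replicate 2 the change was 1.05 and without DSS replicate 3 it was 1.14, so no single DSS library carried it.

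Osm and Il12b were scarce in both groups. Osm, measured at 0.43, 1.43 and 0.28 FPKM in DSS and at 0.12, 0.11 and 0.14 FPKM in Control, rested on 15, 54 and 12 fragments in DSS and on 4, 4 and 5 in Control. The difference came mostly from DSS replicate 2: the ratio of means was 5.78 with it and 2.88 without it. Il12b stood at 2.01, 0.58 and 0.53 FPKM in DSS (61, 19 and 20 fragments), against 0.18, 0.12 and 0.25 FPKM in Control (5, 4 and 8 fragments). Here DSS replicate 1 was the high library, and replicates 2 and 3 were alike within counting error. When every listed feature was tested without the filter, Osm was higher in DSS by 0.55 (SE 0.22, limma adjusted p = 0.0383) and Il12b by 0.71 (SE 0.25, limma adjusted p = 0.024), both as differences of log2(FPKM + 1). In that fit 8 of the 9 genes rose, beside 77.6% of all 912 features.

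The 3 CXC chemokines are neighbours on chromosome 5 (GENCODE M21, mm10), all on the plus strand. Cxcl5 lies at 90759360 to 90761624, Cxcl1 at 90891241 to 90893115 and Cxcl2 at 90903871 to 90905938. This 147 kb stretch holds 7 protein-coding genes, of which these 3 are listed for Control and DSS. The promoters of Cxcl1 and Cxcl2 are shown because they carry the same NF-kB-type element and the same AT-rich string near the start, while their levels differed in pattern between the DSS libraries. Each line gives the 250 bases before the start of transcription (RefSeq, GRCm38.p6), 5′ to 3′ on the plus strand, with the shared 11-base element and a shared 10-base string further downstream in capitals. The windows are chr5:90890995-90891244 for Cxcl1 and chr5:90903649-90903898 for Cxcl2. The GENCODE starts given above, 90891241 for Cxcl1 and 90903871 for Cxcl2, lie inside these windows. Distances to the start therefore depend on the annotation, most of all for Cxcl2.
Cxcl1: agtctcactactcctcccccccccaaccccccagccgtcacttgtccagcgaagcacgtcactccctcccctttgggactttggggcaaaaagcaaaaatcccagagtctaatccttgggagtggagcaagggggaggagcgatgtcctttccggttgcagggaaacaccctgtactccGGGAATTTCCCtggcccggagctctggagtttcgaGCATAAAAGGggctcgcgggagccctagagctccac
Cxcl2: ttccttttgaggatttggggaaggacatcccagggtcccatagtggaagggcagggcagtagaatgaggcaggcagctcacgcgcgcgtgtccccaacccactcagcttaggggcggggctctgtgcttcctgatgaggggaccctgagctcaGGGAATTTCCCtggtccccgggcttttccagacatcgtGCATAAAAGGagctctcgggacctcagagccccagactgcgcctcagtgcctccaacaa

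The element GGGAATTTCCC spans 71 to 61 bases before the RefSeq start in Cxcl1 and 97 to 87 bases before it in Cxcl2. Counted from the GENCODE starts these distances would be other ones. It is palindromic apart from its middle base, and each copy holds the 10-base NF-kB consensus on both strands in overlapping positions. Searched on both strands, GGGAATTTCCC occurs in 14 of 32851 windows of the same length (0.0426%), each of a different gene, and of those 14 genes Cxcl1 and Cxcl2 are the 2 that the Control and DSS files list. The NF-kB consensus occurs in 3.9% of all windows. Among the 10 genes it was found in 2 of the 7 with a window, Cxcl1 and Cxcl2, and not in the others. The string GCATAAAAGG lies 36 to 27 bases before the RefSeq start in Cxcl1 and 59 to 50 bases before it in Cxcl2. It occurs in 19 windows (0.0578%) with both strands searched. Both were taken from these sequences, as the joined consensus matches of Cxcl1 and as the longest string that the last 60 bases of the windows share. Of the 10 genes, 7 had a window in the RefSeq table, and the hexamer TATAAA was found in those of Il1b, Tnf and Ccl8, beside 12.4% of all windows.

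Cxcl1 and Cxcl2 differed in their pattern between the DSS libraries. Cxcl1 stood at 3.36, 2.41 and 2.14 FPKM in DSS replicates 1 to 3 (97, 75 and 77 fragments), against 0.19, 0.58 and 0.30 FPKM in Control (5, 18 and 9 fragments). The DSS libraries differed by 1.57-fold at most, with replicate 1 the highest. Cxcl1 rose by 1.42 on the log2(FPKM + 1) scale (SE 0.19, limma adjusted p = 0.00133), the smallest adjusted p of the 5 tested genes, and by 1.46 without DSS replicate 2. Cxcl2 stood at 1.35, 14.07 and 0.25 FPKM in DSS (43, 484 and 10 fragments), and at 0.09 and 0.06 FPKM in Control replicates 2 and 3 (3 and 2 fragments), while Control replicate 1 was listed at 0. The DSS libraries spanned 56.3-fold, the widest of the 9 genes, with replicate 2 the highest. With 5 fragments in all 3 Control libraries together, the ratio of fragment rates in DSS over Control was 99.1, with a counting interval of 42.2 to 307. Without DSS replicate 2 that ratio was 14.5 (5.83 to 46.5). Cxcl2 was below the filter. Without the filter its log2 change of 1.75 (SE 0.78) did not pass (limma adjusted p = 0.0578), and without DSS replicate 2 as well the change was 0.71 and passed (limma adjusted p = 0.0292).

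Cxcl5 was the most abundant of the CXC chemokines in both groups. Its level was 5.61, 22.37 and 3.39 FPKM in DSS replicates 1 to 3, against 0.45, 0.74 and 0.33 FPKM in Control. DSS replicate 2 was again the highest, and the lowest DSS library was still several times the highest Control library. Cxcl5 rose by 2.55 on the log2(FPKM + 1) scale (SE 0.53, limma adjusted p = 0.00413) and by 1.85 without DSS replicate 2 (limma adjusted p = 0.00459).

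The CC chemokines lie on chromosome 11, with Ccl2 at 82035571 to 82037453, Ccl8 at 82115185 to 82116799 and Ccl3 at 83647844 to 83649355. Ccl2 stood at 4.79, 4.70 and 1.65 FPKM in DSS (84, 89 and 36 fragments), against 0.98, 0.84 and 0.76 FPKM in Control (16, 16 and 14 fragments). DSS replicates 1 and 2 were alike, and replicate 3 was lower. Ccl2 rose by 1.26 on the log2(FPKM + 1) scale (SE 0.30, limma adjusted p = 0.00526). Ccl3 stood at 1.10, 5.10 and 0.75 FPKM in DSS (13, 65 and 11 fragments), against 0.36, 0.08 and 0.40 FPKM in Control (4, 1 and 5 fragments). The counting intervals of DSS replicate 3 (0.374 to 1.34 FPKM) and Control replicate 3 (0.131 to 0.939 FPKM) overlapped, and the ratio of means was 8.27 with DSS replicate 2 and 3.30 without it. Without the filter the difference for Ccl3 on the log2(FPKM + 1) scale was 1.15 (SE 0.43, limma adjusted p = 0.0315).

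The order of the genes by level differed between the groups. In DSS the means ran from Il1b (13.6 FPKM) and Cxcl5 (10.5 FPKM) through Cxcl2 (5.22), Ccl2 (3.71), Tnf (3.56), Cxcl1 (2.64) and Ccl3 (2.32) down to Il12b (1.04) and Osm (0.713 FPKM). In Control, Tnf led with 1.17 FPKM, ahead of Ccl2 (0.86), Il1b (0.597), Cxcl5 (0.507), Cxcl1 (0.357), Ccl3 (0.28), Il12b (0.183), Osm (0.123) and Cxcl2 (0.05 FPKM). Cxcl2 thus had rank 3 of 9 by its DSS mean and rank 9 by its Control mean. Most neighbours in the DSS order were not separated: only Cxcl5 over Cxcl2 and Tnf over Cxcl1 held in all 3 DSS libraries, and Cxcl2 over Ccl2 held in 1 of 3. In Control, 4 of the 8 neighbouring pairs kept their order in all 3 libraries, including Ccl2 over Il1b and Osm over Cxcl2. The 9 genes summed to 29.3, 87 and 13.4 FPKM in the DSS libraries and to 4.44, 4.34 and 3.59 FPKM in the Control libraries. Il1b, Cxcl2 and Cxcl5 together made up 48.1, 79.2 and 35.2% of that sum in DSS replicates 1 to 3 and 25.6 to 30.6% in Control.

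The 3 DSS libraries were unlike one another for these genes. For 6 of the 9 (Il1b, Tnf, Osm, Cxcl2, Cxcl5 and Ccl3) DSS replicate 2 was highest, for 3 (Il12b, Cxcl1 and Ccl2) it was replicate 1, and all 9 were lowest in DSS replicate 3. Among the 731 listed features with a higher DSS mean, replicate 2 was highest for 453, replicate 1 for 217 and replicate 3 for 61. How many of the 731 were lowest in replicate 3 was not counted, so that count does not set the 9 genes apart. The highest DSS library exceeded the lowest by a median of 5.11-fold over the 9 genes, against 1.72-fold over those 731 features. A spread above 5-fold was found in 5 of the 9 genes, or 55.6%, and in 6.29% of the 731. The 731 were not matched to the 9 for level, and the lowest DSS values of Osm, Cxcl2 and Ccl3 rest on 12, 10 and 11 fragments. Wide DSS ranges were not particular to the 9. They were also seen in S100a8 (1.50 to 24.43 FPKM), Cxcr2 (0.17 to 3.39 FPKM) and Mmp10 (4.18 to 24.16 FPKM), but not in Cd68 (24.82 to 31.58 FPKM). These spreads are a description of 3 libraries and were not tested. DSS replicate 3 is the library whose descriptive text names the decoction, and without it and Control replicate 3 the ratio of means was 36.7 for Il1b in place of 22.7, and 2.58 for Tnf in place of 3.05.

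**Figure D2:**
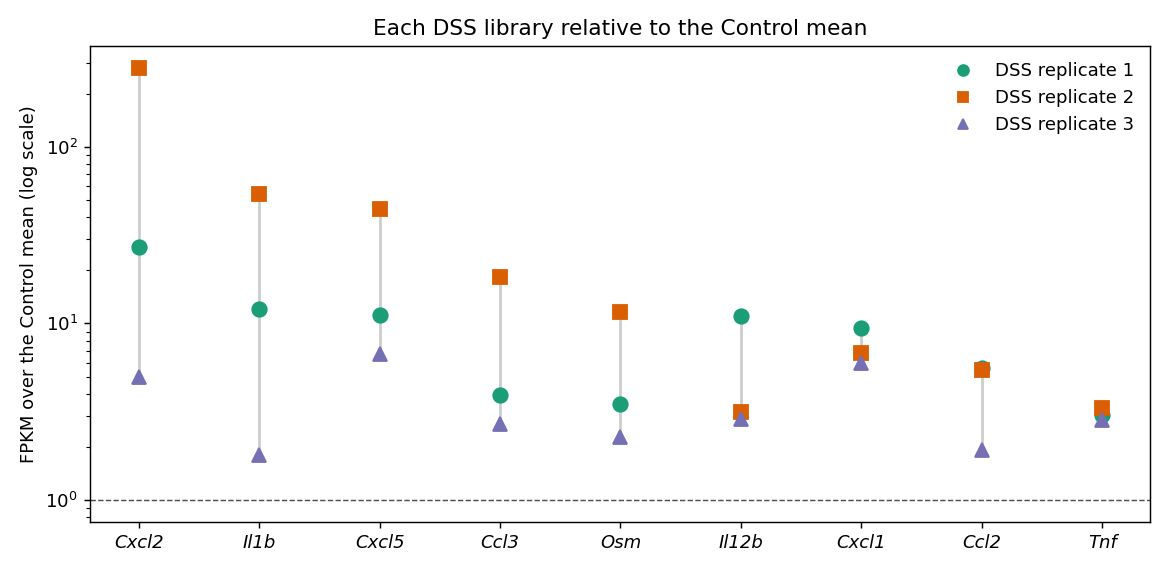
FPKM of each gene in each DSS library divided by the mean of the 3 Control libraries (dashed line at 1), on a log axis, with genes ordered by their highest fold. Replicate 2 reached 281 times the Control mean for Cxcl2 and 54.4 times for Il1b, whereas Tnf stood between 2.84 and 3.30 times in all 3 libraries.

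The summed neutrophil markers had the same order of DSS libraries as the summed cytokine and chemokine genes. The endothelial markers below and the 8 listed chemokine receptors (30, 33.7 and 22.8 FPKM in DSS replicates 1 to 3) had that order too. The other summed cell type lists below did not. Of 12 neutrophil genes, 5 were listed for both groups (S100a8, Csf3r, Retnlg, Ltf and Cxcr2), and they summed to 12.8, 45.4 and 6.5 FPKM in DSS replicates 1 to 3 and to 1.32 to 1.51 FPKM in Control. All 5 were highest in DSS replicate 2. The 5 listed macrophage and monocyte markers of 12 summed to 48.2, 44.5 and 39.6 FPKM in DSS and to 16.1 to 21.8 FPKM in Control. Of these 5 markers 4 rose, beside 79.2% of all tested features. Cd68, a lysosomal protein of macrophages, made up most of that sum, with 31.58, 25.59 and 24.82 FPKM in DSS and 11.17, 14.57 and 10.49 FPKM in Control. Chil3, a lectin of myeloid cells, was uneven in DSS, with 0.44, 1.22 and 0.19 FPKM, against 0.04, 0.11 and 0.08 FPKM in Control. Chil3 met the filter through the BXD_H libraries (1.42, 7.78 and 8.98 FPKM), whose spread enters its SE of 0.45. It did not pass the threshold in that fit (limma adjusted p = 0.258). Its DSS libraries had the same order as the summed cytokine and chemokine genes. The 5 listed T and NK cell markers of 10 summed to 27.5, 20.8 and 19.7 FPKM in DSS and 7.7 to 10.5 FPKM in Control. Of these 5 markers 4 were highest in DSS replicate 1, the library in which Il12b was highest. Replicate 1 was highest for 217 of the 731 features. The fibroblast markers Col1a1, Col1a2 and Thy1 (3 of 5 listed) summed to 96.2, 210 and 110 FPKM in DSS and to 34.9 to 43.6 FPKM in Control, and the colonocyte markers Car4 and Slc26a3 (2 of 10 listed for these groups) to 320, 109 and 457 FPKM in DSS and to 742 to 1086 FPKM in Control. The endothelial markers Vcam1, Sele and Selp (3 of 5) summed to 15.3, 17.1 and 10.4 FPKM in DSS and to 3.31 to 4.16 FPKM in Control. The B and plasma cell markers (4 of 9 listed, all immunoglobulin genes) summed to 13803, 11393 and 9017 FPKM in DSS and to 3888 to 4548 FPKM in Control, and the mast cell markers (2 of 4) to 3.38, 2.64 and 2.63 FPKM in DSS and to 0.79 to 1.25 FPKM in Control. Of 6 dendritic cell markers Ccr7 was listed, at 3.94, 3.04 and 1.64 FPKM in DSS and at 0.88, 1.64 and 0.62 FPKM in Control, and of 3 eosinophil markers 0 were listed. Of all these markers Cxcr2 was listed at 0 in Control replicates 1 and 2, and Sele in Control replicates 1 and 3. The part of cell composition in the cytokine differences was not tested.

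**Figure D3:**
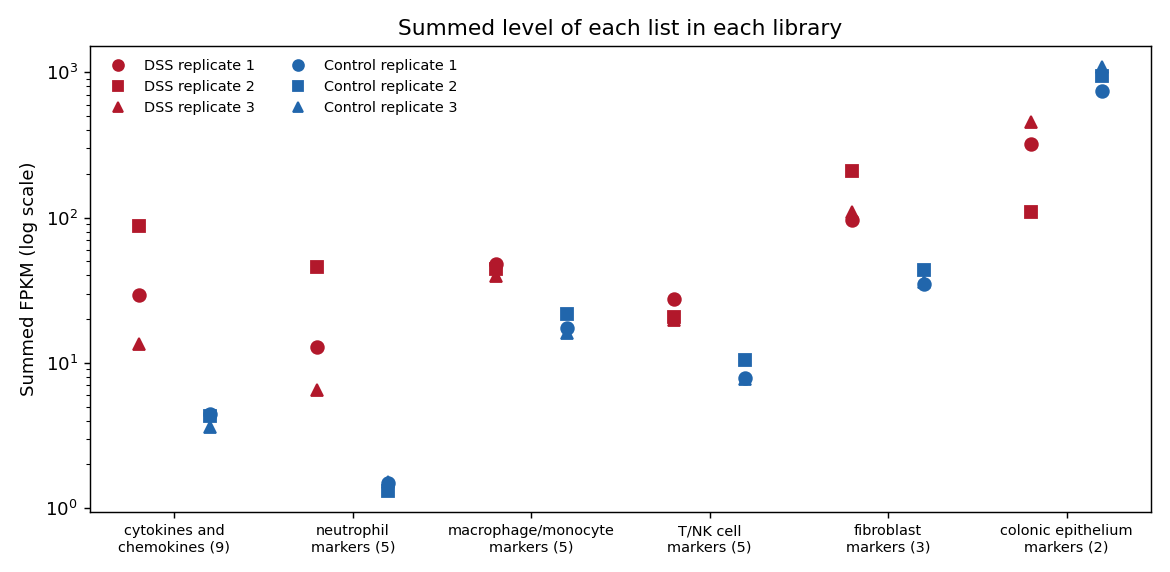
Summed FPKM, on a log axis, of the 9 cytokine and chemokine genes and of the listed markers of 5 cell types in each DSS library (red) and each Control library (blue). The cytokine sum and the neutrophil sum both had DSS replicate 2 highest (87 and 45.4 FPKM) and replicate 3 lowest (13.4 and 6.5 FPKM), while the macrophage sum varied between 39.6 and 48.2 FPKM in DSS.

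The receptors of these ligands were listed in part. Of 22 chemokine receptor genes 8 were listed and 5 tested, and all 5 rose (79.2% of all tested features rose): Ccr1 (log2 change 1.19), Ccr2 (1.17), Cx3cr1 (0.97) and Ccr7 (0.90) by most, and Cxcr6 by less. Cxcr2, the neutrophil receptor of Cxcl1, Cxcl2 and Cxcl5, stood at 0.53, 3.39 and 0.17 FPKM in DSS, and at 0.02 FPKM in Control replicate 3 with the other two Control libraries listed at 0. DSS replicate 2 was the highest library for this receptor and for 2 of its 3 ligands, and Cxcl1 was the exception. That replicate was also highest for 453 of the 731 features with a higher DSS mean, so sharing it does not set a ligand and receptor pair apart. Ccr2, the receptor of Ccl2, was even in DSS (4.96, 6.04 and 4.82 FPKM) and lower in Control (1.54, 2.18 and 1.66 FPKM), although Ccl2 itself differed by 2.90-fold between the DSS libraries. Ccr1, a receptor of Ccl3, stood at 7.03, 10.10 and 5.99 FPKM in DSS and at 3.12, 3.14 and 2.07 FPKM in Control, and was highest in DSS replicate 2, as was Ccl3.

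Of 16 receptor genes for interleukin 1, Tnf, Osm and interleukin 12, 3 were listed and 1, Osmr, passed the filter. Osmr stood at 3.19, 5.59 and 2.12 FPKM in DSS, against 1.51, 1.50 and 1.31 FPKM in Control, and rose by 0.86 on the log2(FPKM + 1) scale (SE 0.27), with a limma adjusted p of 0.0133. Its DSS libraries had the same order as those of its ligand Osm, with replicate 2 highest, as for 453 of the 731 features with a higher DSS mean. Il12rb1, the receptor chain for p40, was scarce, with 0.55, 0.48 and 0.46 FPKM in DSS and 0.14, 0.16 and 0.12 FPKM in Control. It was highest in DSS replicate 1, as was Il12b. Its DSS values were close together and no counting interval was computed for it, so their order carries little weight.

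**Figure D4:**
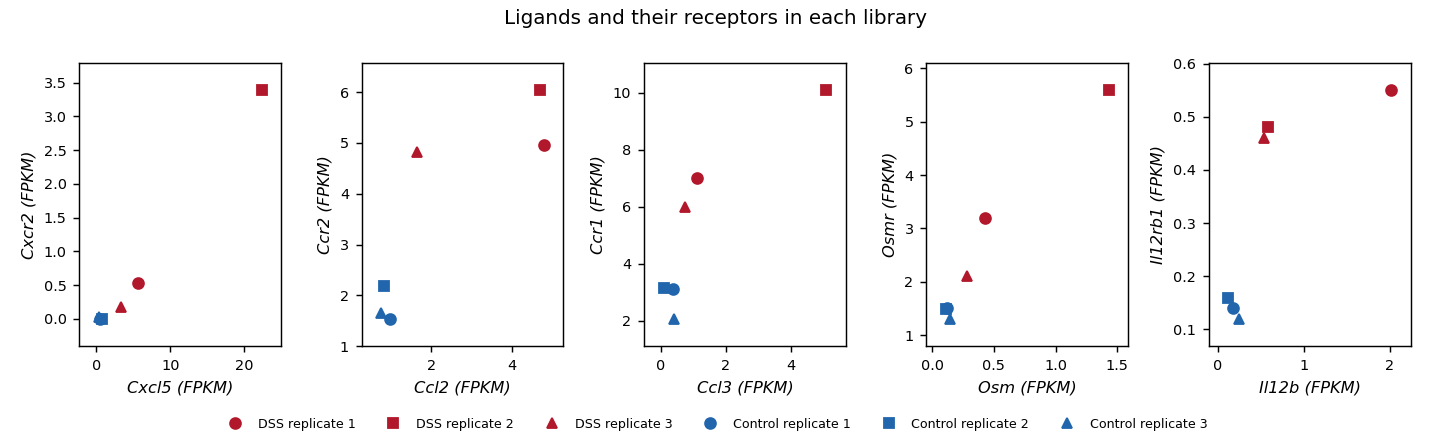
Receptor level against ligand level, both in FPKM, in each DSS library (red) and each Control library (blue) for 5 ligand and receptor pairs, with axes that do not all start at 0. Osm and Osmr were both highest in DSS replicate 2 (1.43 and 5.59 FPKM). Il12b was highest in DSS replicate 1 (2.01 FPKM), while Il12rb1 was nearly even in DSS (0.46 to 0.55 FPKM).

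Few other cytokine genes were listed. Of 39 further interleukins and cytokines 1 was listed, Il34, a ligand of the macrophage growth factor receptor, which rose (log2 change 0.96). Of 15 further Tnf family ligands 3 were listed, and Ltb, a lymphotoxin subunit made by lymphocytes, rose (0.99) while Tnfsf8 and Tnfsf11 were below the filter. Of 14 further CXC, CX3C and XC chemokines 1 was listed, Cxcl14, which rose (1.14), and of 17 further CC chemokines 1 was listed, Ccl22, a dendritic cell and macrophage product that attracts Ccr4-bearing T cells, which rose (1.11). All 9 tested of 30 NF-kB and interleukin 17 pathway and response genes rose too, beside 79.2% of all tested features, with 11 listed and a median log2 change over those 11 of 1.50, against 1.26 over the 9 cytokine and chemokine genes and 0.67 over all 912 features. The largest changes among the 9 were those of the metalloproteases Mmp10 (2.41) and Mmp3 (2.28), of the nitric oxide synthase Nos2 (1.80) and of the acute phase gene Saa3 (1.73). None of 7 regulators of cytokine mRNA decay and signalling was listed.

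The listed features with the most similar profile over the 6 libraries were found for the 5 tested genes by the root mean square difference of centred log2(FPKM + 1) values. For Tnf these were ENSMUSG00000120140 (difference 0.07) and Cybb (0.08), a subunit of the phagocyte oxidase. For Cxcl1 they were Vcam1 (0.09), an endothelial adhesion molecule, and C4b (0.13), a complement gene. For Cxcl5 they were Mmp10 (0.15) and Aldh1a3 (0.27), a retinoic acid synthesising enzyme. For Ccl2 they were Adamts4 (0.09), an aggrecanase, and Plaur (0.17), the urokinase receptor. Il1b had no feature as close, the nearest being a kappa light chain variable segment of the Igkv17 family (0.35) and the neutrophil gene S100a8 (0.41).

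The decoction groups can be described for 1 of the 10 genes. The BXD_L files list 8 features and none of the 10, and the BXD_H files list 95 features, of which Ccl8 is the only one of the 10. Ccl8 encodes a chemokine that in the mouse acts through Ccr8. It stood at 40.68, 58.07 and 52.78 FPKM in BXD_H replicates 1 to 3 (358, 540 and 335 fragments), with a mean of 50.5 ± 8.91 FPKM (SD, n = 3). The counting interval of replicate 1 (36.6 to 45.1 FPKM) lay below those of replicates 2 (53.3 to 63.2 FPKM) and 3 (47.3 to 58.7 FPKM). Its values in DSS and Control were not analysed here, so no change can be given for it. Each BXD_H library had a higher level of Ccl8 than any DSS or Control library had of the other 9 genes, the highest of which was Il1b in DSS replicate 2 at 32.48 FPKM.

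Neutrophil genes varied strongly in the same BXD_H libraries. Retnlg stood at 9.50, 64.50 and 226 FPKM in BXD_H replicates 1 to 3, against 5.80, 8.92 and 2.20 FPKM in DSS and 0.35, 0.20 and 0.21 FPKM in Control. Mmp8 (1.22, 9.25 and 21.71 FPKM) and Ngp (0.76, 4.23 and 17.46 FPKM), both of neutrophil granules and listed for BXD_H only, had the same order of libraries. Chil3, a gene of myeloid cells, stood at 1.42, 7.78 and 8.98 FPKM in BXD_H, against 0.44, 1.22 and 0.19 FPKM in DSS and 0.04, 0.11 and 0.08 FPKM in Control. Ccl8 differed by less than these genes between the BXD_H libraries.

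**Figure D5:**
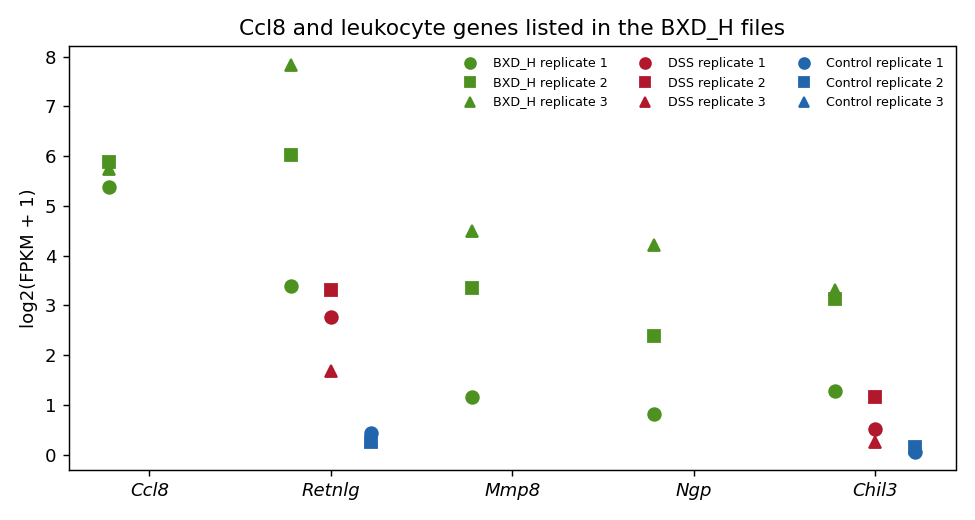
Level as log2(FPKM + 1) of Ccl8 and of leukocyte genes listed in the BXD_H files, in BXD_H (green), DSS (red) and Control (blue) libraries, with a symbol per replicate. Ccl8, Mmp8 and Ngp have BXD_H values only, and Retnlg ran between 9.50 and 226 FPKM over the BXD_H libraries, while Ccl8 ran between 40.68 and 58.07 FPKM.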

How the data were processed

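Per the labels' protocols, total RNA was isolated with TRIzol and sequenced from NEBNext Ultra libraries. The submitters' processing notes name bcl2fastq, FastQC, fastp and the build mm10. Aligner, counting program, strand use and the selection of the listed features are not stated. The deposited values are FPKM, 1 column per library, per the file headers, and they carry no correction for library composition. GENCODE M21 gave names and coordinates for 981 of 991 identifiers. Library totals were found by scanning for the total at which FPKM times exon length gave whole fragments in genes with exons under 1200 bases. They assume the annotated exon length and were not determined for BXD_L. At most 25 of 912 values were equal between 2 libraries of a group, so no DSS or Control file was a copy of another in its group. Each library was counted as its own sample. The check cannot tell separate mice from technical libraries, whose values would differ too.

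limma 3.58.1 (R 4.3.3) was fitted to log2(FPKM + 1) with a mean for each of the 4 groups, a trended prior, and each feature fitted where listed. Features with at least 1 FPKM in 3 or more libraries were tested two-sided. Benjamini-Hochberg adjustment ran over the 576 tested for DSS against Control, with a threshold of 0.05. The fit was tested on simulated data. Named genes are the 10 members, up to 4 past the threshold per list, and the 2 nearest features of each tested member. Receptors, genes below the filter and BXD_H genes named beyond that were chosen after their values were seen. The members and lists were chosen with earlier results of these data known, and a receptor gene is not reported here.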

Additional observations from a re-analysis of the deposited data

Results flagged for a closer look

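Values outside the comparison of DSS with Control were found for genes that the BXD_H files list. Ccl8 had a median of 52.8 FPKM in BXD_H, with no value analysed here for Control or DSS. Retnlg had a median of 64.5 FPKM in BXD_H and Chil3 one of 7.78 FPKM. In both genes every BXD_H library lay above every Control library. The DSS and BXD_H lists share 19 features, and how many of these have that order was not counted. How the BXD_H list was made is not stated, so that order does not set these genes apart. Mmp8 (median 9.25 FPKM) and Ngp (median 4.23 FPKM), listed for BXD_H alone, were above 0 in all 3 BXD_H libraries.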

How the results depend on the processing

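All 9 genes were higher in DSS under every alternative in which they were fitted. The number that rose, 5, was 5 or 4 when single libraries were left out and 5 without Control replicate 3 and DSS replicate 3. Over all features, the single-library fits called 528 to 562 (440 to 453 higher in DSS), beside 571 (456 higher) in the main fit. The fit without those 2 conflicting libraries called 502 (425 higher). These counts therefore do not set the 5 genes apart. Of the 9 genes 8 rose without the filter (877 features called in all, with 77.6% of 912 higher). In alternatives chosen after seeing the data, 9 rose without the filter and DSS replicate 2 (74.7% of all 912 features rose), and 8 without the filter and those 2 conflicting libraries (57.6%). The differences of the scarce genes in these 3 fits without the filter were 0.55, 0.27 and 0.74 for Osm (the last with limma adjusted p = 0.0505), 0.71, 0.86 and 0.92 for Il12b, 1.75, 0.71 and 2.51 for Cxcl2 and 1.15, 0.59 and 1.56 for Ccl3. With a filter of at least 1 FPKM on the mean of the DSS and Control libraries, 7 genes passed, among 565 features called (448 higher in DSS). Cxcl2 (1.75, limma adjusted p = 0.0475) and Ccl3 (1.15, limma adjusted p = 0.0293) were tested and passed there. Both met that filter only through their DSS values, as their Control means were 0.05 and 0.28 FPKM. Il1b ranged between 1.38 and 3.39 when single libraries were left out. Subtracting from each library its median log2 value over the list lowered every change by 0.65 and left 2 of the genes, Cxcl1 and Cxcl5, among 231 features called (113 higher and 118 lower). Il1b (1.74), Tnf (0.45) and Ccl2 (0.61) then did not pass. That loss is built into centring a list of mostly rising features. With groups from the descriptive texts 1 gene, Il1b, rose among 8 features called, and Tnf (0.44), Cxcl1 (0.97), Cxcl5 (1.89) and Ccl2 (1.02) did not pass. The cause was not tested. With a replicate block 5 genes and 570 features passed, but same-numbered libraries did not deviate together (correlations -0.05, 0.02 and 0.08), and not every library correlated best with its own number. Pseudocounts of 0.1 and 0.5 FPKM changed no call among the 5. Values of Osm, Il12b, Cxcl2 and Ccl3 in Control rest on at most 8 fragments per library, which limits their ratios.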
